A study of Mus musculus with 3 samples.

Results

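The genes described here make, move and oxidize the lipids of the epidermal barrier. They are 10 genes of ceramide and acylceramide synthesis and of the epidermal lipoxygenases, namely Sptlc2, Cers3, Elovl1, Elovl4, Ugcg, Abca12, Smpd1, Alox12b, Aloxe3 and Alox12e, chosen by name through the gene symbols of the array platform. The 10 genes are among 18193 genes named on the array and are read by 20 probe sets, each annotated with 1 gene. RNA from the back skin of mice was pooled within each of 3 groups and hybridized to Affymetrix mouse expression arrays, 1 for each pool. WT were C57BL/6J mice on an AIN-93-based diet, and KO were interleukin-10 (IL-10) knockout mice on the same diet. KOE were KO mice whose diet held 8% powdered eggshell membrane (pESM). By the paper's diet composition, the pESM diet also held less casein and less β-corn starch than the control diet. The KO and KOE mice were male, and the sex of the WT mice is not stated in the sources used here. Feeding began at 4 weeks of age and lasted 28 weeks, and there were 5 WT, 7 KO and 6 KOE mice. The KO allele was made in 129-derived cells and carried through crosses with C57BL/6J, as the strain name in the methods shows, whereas WT mice were C57BL/6J. The sources used here do not state how many mice of a group were pooled.

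The outermost layer of the epidermis holds water back by lipid sheets rich in ceramides. Keratinocytes join a sphingoid base to a very long fatty acid, add glucose to the ceramide, load it into lamellar granules and release it at the border of the dead cell layers, where enzymes turn it back into ceramide. Linoleate on the longest ceramides is oxidized by a pair of lipoxygenases in sequence, which allows the lipid to be bound to the protein envelope of the corneocyte, and loss of several of these genes causes ichthyosis.

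Signal intensities are given here on a linear scale, a measure of brightness that has no molecule count behind it. Where several probe sets named a gene, the one brightest on average stands for it, and a gene is called past the cut-off when 2 arrays differed by at least 1.5-fold and at least 1 of them reached a signal of 40. A single array per group allows no test between mice, so p-values are absent. The precision of each value is limited by the number of arrays. As a guide to spread between readings, log2 ratios of different probe sets of 1 gene were compared where both arrays reached 40. Their standard deviation was 0.36 (KO vs. WT), 0.29 (KOE vs. KO) or 0.34 (KOE vs. WT). These probe sets share the same arrays, so the value covers neither differences between mice nor errors common to an array. Each ratio below therefore describes these pools. Where 3 signals are listed, their order is WT, KO, KOE. In whole skin, fewer cells of a type and less RNA per cell cannot be told apart.

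A signal of 40 was reached by 29390 to 31298 of 45037 probe sets per array. The probe set of Il10 gave 17.0, 680 and 401, so it does not check the knockout. Of the keratinocyte markers of the labelled tissue, Krt5 lay between 19214 and 24499 on the 3 arrays and Krt10 between 29570.8 and 36463. Other markers were weaker, such as Krt2 at 131, 84.3 and 105. Of 13 cornifying markers, 1 passed the cut-off upward and 3 downward in KO relative to WT, which the sums below do not show. Genes of the growing hair follicle differed widely, and the summed signal of 15 measured markers was 177329, 1600.2 and 1595. Against this, the sum over 13 markers of cornifying epidermis was 107474, 126457 and 128964, and that of 8 basal keratinocyte markers was 89649.9, 115838 and 113948.

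Of the 10 genes, Alox12b and Elovl1 passed the cut-off upward in the KO pool relative to WT, Alox12e passed it downward and the other 7 were not past it. Over all 14495 genes that reached 40 in at least 1 of these arrays, 10.9% were higher and 14.5% were lower. Between KOE and KO the single gene past the cut-off was Alox12e, which was higher, where 10.9% of 14594 genes were higher and 5.33% were lower. Between KOE and WT it was Alox12b, again higher, where 12.4% of 14784 genes were higher and 10.4% were lower. Counts as small as these do not set the group apart from all genes. All 10 genes reached a signal of 40 on each array at the probe set used, as did 18 of the 20 probe sets. Counted by probe set, 6 were higher and 3 lower for KO vs. WT, beside 10.6% and 20.2% of all probe sets. For KOE vs. KO these were 2 and 0, beside 14.5% and 5.93%, and for KOE vs. WT 2 and 1, beside 13.2% and 14.5%. Probe sets of 1 gene are not separate members, and the 6 higher in KO than in WT include every probe set of Elovl1. The 3 lower include weak probe sets of Sptlc2 and Ugcg that were under 40 in KO.

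**Figure D1:**
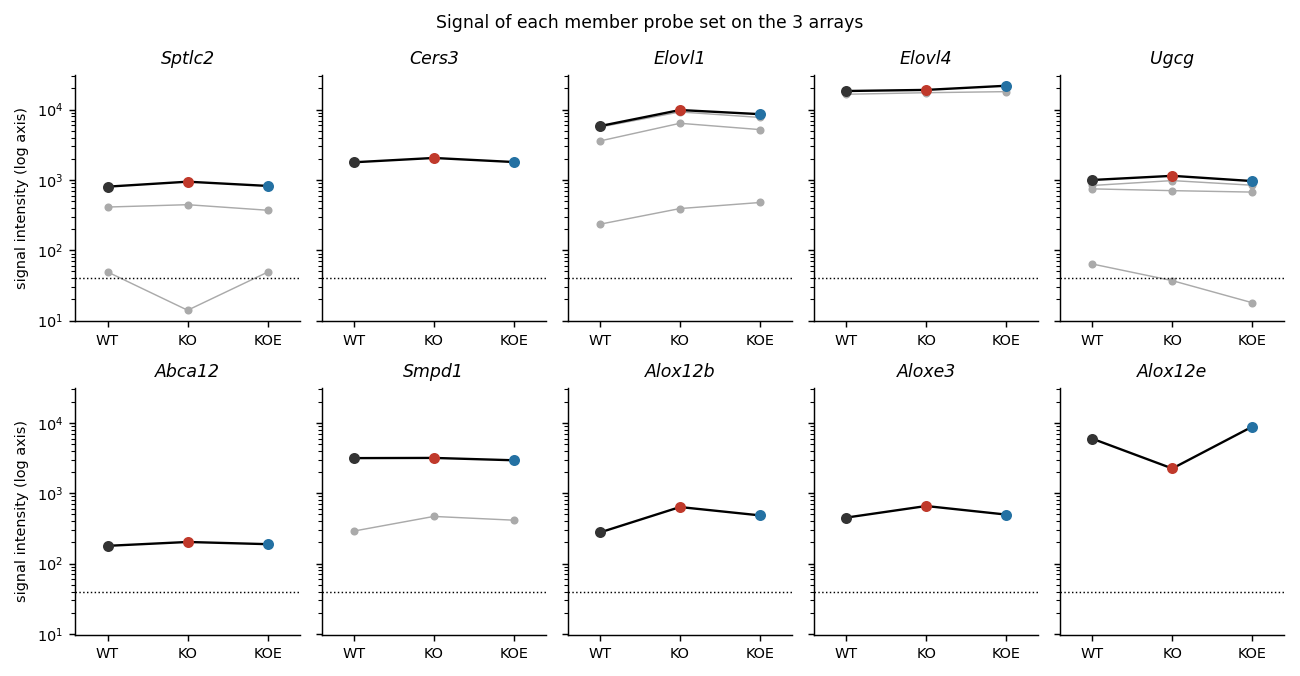
Signal intensity on a log axis for every probe set of the 10 genes on the WT, KO and KOE arrays, 1 array each. Colored points mark the probe set used for the gene, gray points the others, and the dotted line a signal of 40. Alox12e dips from 5977 to 2250.0 and reaches 8868, whereas the lines of Cers3, Elovl4, Ugcg, Abca12 and Smpd1 at the probe set used are nearly flat.

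The starts of the 3 genes past the cut-off between KO and WT are shown because Alox12e and Alox12b, both lipoxygenases, lay in opposite directions. Promoter sequences, of 250 bases before to 50 after the start site, are written 5′ to 3′ on the strand of the gene, come from RefSeq on GRCm38.p6 and were found for 9 of the 10 genes. They were searched on both strands for 7 short motifs, namely TATAAA for the TATA box, then the CCAAT box, GGGCGG for the GC box, TGANTCA for AP-1, AGGTCA for nuclear receptors, CACGTG for the E-box and AGATAA for GATA factors, and capitals mark the matches. In the first Elovl1 promoter a CCAAT match overlaps a GGGCGG match.
Alox12e, chr11:70322481-70322780, minus strand: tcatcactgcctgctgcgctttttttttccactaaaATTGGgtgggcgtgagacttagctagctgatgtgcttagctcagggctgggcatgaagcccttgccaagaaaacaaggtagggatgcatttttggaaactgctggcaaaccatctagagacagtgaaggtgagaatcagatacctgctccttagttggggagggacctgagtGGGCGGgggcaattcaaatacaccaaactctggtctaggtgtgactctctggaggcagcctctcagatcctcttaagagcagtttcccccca
Alox12b, chr11:69156822-69157121, plus strand: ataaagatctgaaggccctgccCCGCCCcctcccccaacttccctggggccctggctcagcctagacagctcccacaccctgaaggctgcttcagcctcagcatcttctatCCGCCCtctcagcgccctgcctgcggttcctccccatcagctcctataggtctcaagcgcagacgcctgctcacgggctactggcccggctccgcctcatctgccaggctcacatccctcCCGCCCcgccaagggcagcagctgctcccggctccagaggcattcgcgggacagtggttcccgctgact
Elovl1, first start site, chr4:118427843-118428142, plus strand: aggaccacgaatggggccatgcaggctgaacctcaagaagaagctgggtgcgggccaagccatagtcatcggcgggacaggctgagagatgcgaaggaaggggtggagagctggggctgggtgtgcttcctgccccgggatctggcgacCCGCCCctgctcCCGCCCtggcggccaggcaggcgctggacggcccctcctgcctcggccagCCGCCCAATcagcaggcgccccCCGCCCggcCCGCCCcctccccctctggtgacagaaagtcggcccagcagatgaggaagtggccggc
Elovl1, second start site, chr4:118429451-118429750, plus strand: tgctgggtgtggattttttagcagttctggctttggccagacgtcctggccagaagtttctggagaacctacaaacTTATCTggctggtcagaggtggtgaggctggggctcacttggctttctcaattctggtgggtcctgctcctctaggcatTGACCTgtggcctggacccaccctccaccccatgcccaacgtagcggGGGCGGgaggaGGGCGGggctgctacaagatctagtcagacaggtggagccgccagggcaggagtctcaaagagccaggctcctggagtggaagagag
GGGCGG was present in 8 of the 10 promoters of these genes (Elovl1 has 2) and in 35.7% of all 32851 promoters. Alox12e held 1 GGGCGG match, whose first base lies at −42 from the start site, and Alox12b held 3. CCAAT was present in 5 of the 10, Alox12e and the first Elovl1 start site among them, and in 37.4% of all. The AP-1 motif and the TATA box were in none of the 10, against 7.81% and 13.6% of all promoters. The nuclear receptor motif was in 3, the GATA motif in 2 and the E-box in 1, against 16.3%, 11.2% and 7.15%. The GC content was 50.7% for Alox12e and 66.0% for Alox12b, with a median of 52.7% over all promoters. These matches describe letters in the window and not bound sites.

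Ceramide synthesis genes differed little. Sptlc2, a catalytic subunit of serine palmitoyltransferase, the enzyme that starts sphingolipid synthesis, gave 803, 945 and 823 at its strongest probe set. The highest and lowest of these arrays were 1.18-fold apart. A second probe set of Sptlc2 gave 412, 445 and 371. The remaining one was weak, at 49.2, 14.0 and 49.0, and it alone passed the cut-off, with the KO signal below both others. When the log2 signals of all 3 were averaged, the ratio of KO to WT turned from 1.18 to 0.713 and that of KOE to KO from 0.871 to 1.36, neither past the cut-off. Cers3, the ceramide synthase that takes the longest acyl chains, gave 1783, 2055 and 1798, and its KO signal was 1.15-fold that in WT.

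The elongases, which lengthen fatty acids before they are joined to the base, split. Elovl1, which extends saturated very long chains, gave 5831, 9872 and 8621. KO was 1.69-fold WT, a ratio exceeded by 1051 of 14495 genes. The other 3 probe sets of Elovl1 gave ratios of KO to WT of 1.64, 1.79 and 1.67, so all 4 were past the cut-off in the same direction. From KO to KOE the signal was lower at 3 of the 4 and higher at 1, the weakest, with ratios between 0.813 and 1.22 that were not past the cut-off. KOE was 1.48-fold WT at the strongest probe set, just under 1.5, and 2.04-fold at the weakest. Of these probe sets, 3 carry the suffix x, which on this platform marks probes that may also read similar sequences elsewhere, while the probe set with a ratio of 1.79 does not.

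Elovl4, which makes the ultra-long chains of acylceramides, had nearly the same signal on each array. Its strongest probe set gave 18393, 19076 and 21849.9, and the second 16533, 17401 and 18021. Across both probe sets the 3 comparisons gave ratios between 1.04 and 1.19.

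The enzymes and the transporter that handle finished ceramides were not past the cut-off at the probe set used. Ugcg, which adds glucose to ceramide, gave 999, 1145 and 964. A second probe set gave 835, 979 and 841, and another 747, 705 and 672, with KO slightly below WT. The weakest, at 63.9, 37.0 and 17.9, lay near or under 40, and its KO and KOE signals were lower than WT past the cut-off. With all 4 averaged on the log2 scale the ratio of KO to WT was 0.926 instead of 1.15.

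Abca12, the transporter that loads glucosylceramide into lamellar granules, gave 179, 203 and 189 at its only probe set, a range within 1.14-fold. Smpd1, acid sphingomyelinase, which frees ceramide from sphingomyelin, had 3161, 3181 and 2944 at the probe set used. A dimmer probe set of Smpd1 gave 290, 468 and 414, so that KO was 1.62-fold WT there and past the cut-off. The probe sets of Smpd1 thus disagreed for KO vs. WT, with log2 ratios of 0.01 and 0.69.

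**Figure D2:**
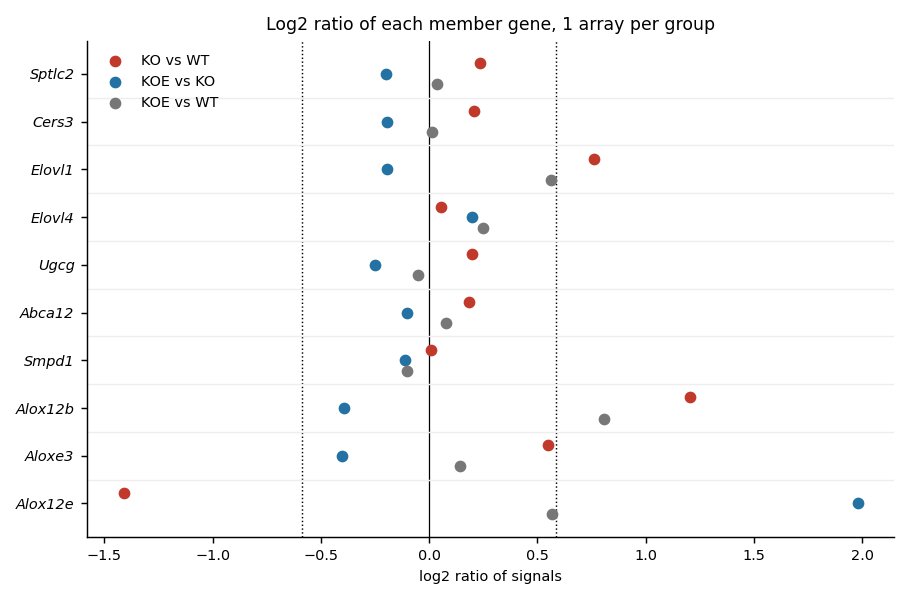
Log2 ratio of signals for each of the 10 genes at the probe set used, in the 3 comparisons of WT, KO and KOE, from 1 array per group. Dotted lines mark 1.5-fold. Alox12e lies at −1.41 for KO vs. WT and at 1.98 for KOE vs. KO, and the other 9 genes lie between −0.40 and 0.20 for KOE vs. KO.

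Alox12e and Alox12b, both lipoxygenases, differed more between KO and WT than the other 8 genes did. Alox12b encodes 12R-lipoxygenase, which oxidizes linoleate bound in acylceramide, and gave 277, 637 and 485. KO was 2.30-fold and KOE 1.75-fold WT, both past the cut-off, and KOE was 0.761-fold KO. Of all genes, 431 of 14495 had a higher ratio of KO to WT. Aloxe3, which turns the product of Alox12b into an epoxy alcohol, gave 450.2, 659 and 497. Its KO signal was 1.46-fold WT, just under the cut-off as deposited. After scaling to a common median, where the median log2 ratio of all genes was 0.29, it was 1.76-fold and past the cut-off. Quantile normalization gave 1.53-fold, also past it. It stayed under the cut-off at 1.49-fold after cyclic loess normalization and at 1.43-fold with an offset of 40. KOE was 0.755-fold KO and 1.11-fold WT. Both genes had 1 probe set each, so no second reading was available. Beside Alox12b and Elovl1, 4 of the 8 basal keratinocyte markers passed the cut-off upward in KO and 0 downward, while 1 of the 13 cornifying markers was higher and 3 were lower, and the part of these cells in the results was not tested.

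Alox12e encodes the epidermal 12S-lipoxygenase of mice, and it lay in the other direction. The WT signal was 5977, the KO signal 2250.0 and the KOE signal 8868, also from 1 probe set. It was 2.66-fold lower in KO than in WT, with a lower ratio for 699 of 14495 genes, and 3.94-fold higher in KOE than in KO, with a higher ratio for 270 of 14594 genes. Other scalings and an offset of 40 gave ratios of 0.344 to 0.454 and of 3.53 to 4.06, past the cut-off, and both deposited ratios also passed a 2-fold limit. The other 4 settings, on probe sets and signal limits, could not alter a gene with 1 probe set this bright. The KO array enters both ratios, so they are not independent of each other. KOE was 1.48-fold WT, a value that uses no KO signal and was under 1.5.

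The log2 ratio of Alox12e minus that of Alox12b was −2.61 (KO vs. WT) and 2.37 (KOE vs. KO), and minus that of Aloxe3 it was −1.96 and 2.38. Alox12b and Aloxe3 differed from each other by 0.65 and 0.01. Ratios within an array are free of any error in scaling between arrays that is common to these genes.

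Markers of other cell types were set beside Alox12e, and their part in its values was not tested. Of 8 skeletal muscle markers, KO lay below WT past the cut-off for 7, and KOE above KO for all 8. Over all genes these shares were 14.5% and 10.9%. The summed signals of the 8 markers were 22566, 9263 and 33734, which is 0.41-fold WT in KO and 1.49-fold in KOE, close to 0.376 and 1.48 for Alox12e. Single muscle markers spread widely around the sums, with ratios from 0.050 to 1.25 for KO vs. WT and from 1.73 to 18.1 for KOE vs. KO. All 6 measured adipocyte markers were lower in KO and higher in KOE, with sums of 19148, 5507 and 11809.9, and 1 of them was under 40 in KO. The methods state that dermal white fat was removed. Of 10 measured sebaceous gland markers, Plin2 passed the cut-off upward in KO relative to WT and Fads2 downward. Fads2, at 327, 87.9 and 169.6, was also the 1 that passed it upward in KOE relative to KO, and none passed it downward there. The sums over all 10 were 86733, 100303 and 96874. Fads2 and Plin2 were named after their values were seen. No marker of the cornifying, basal keratinocyte, sebaceous gland, fibroblast, muscle or macrophage lists was under 40 on any array.

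**Figure D3:**
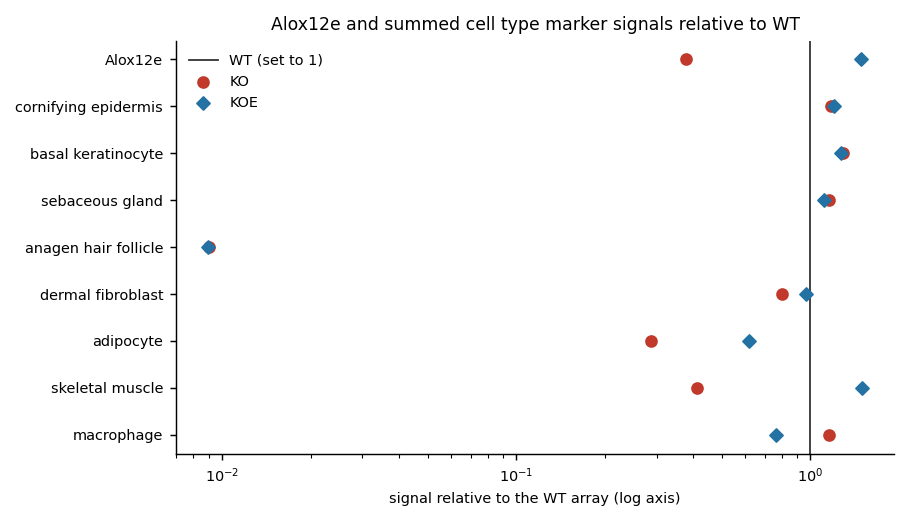
Signal of Alox12e and summed signal of the markers of 8 cell types relative to the WT array, on a log axis, for KO (circles) and KOE (diamonds), 1 array per group. Alox12e lies at 0.376 in KO and 1.48 in KOE, skeletal muscle at 0.41 and 1.49, and the keratinocyte and sebaceous lists between 1.12 and 1.29.

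Taking the direction alone, 9 of the 10 genes had a higher signal in KO than in WT, all but Alox12e, where 51.3% of all genes did and 48.7% were lower. This number was 7 after quantile and after cyclic loess normalization and with the mean over each gene's probe sets. The shares of all genes were then 57.4%, 52.3% and 47.9%. After scaling to a common median the number was 9, where 73.9% of all genes were higher, so the contrast with all genes depends on the scaling. Of the 9 higher genes, only Alox12b, Elovl1 and Aloxe3 had a log2 ratio above the probe set spread of 0.36. The median log2 ratio over the 10 genes was 0.20 for KO vs. WT, against 0.01 over all genes. It was 0.11 over the cornifying markers and 0.48 over the basal keratinocyte markers. Between KOE and KO, 8 of the 10 were lower, all but Elovl4 and Alox12e, where 46.8% of all genes were and 53.2% were higher. The median was −0.19 against 0.02 over all genes. Of the 8 lower genes, only Alox12b and Aloxe3 lay beyond the spread of 0.29. The KO array enters both comparisons, so their opposite directions are not independent. After scaling to a common median 8 were again lower, but only 31.1% of all genes were higher, and the medians were −0.35 and −0.14. For KOE vs. WT, which does not use the KO array, 8 were higher and 2 lower, beside 55.2% and 44.8% of all genes, and the median was 0.11 against 0.05.

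**Figure D4:**
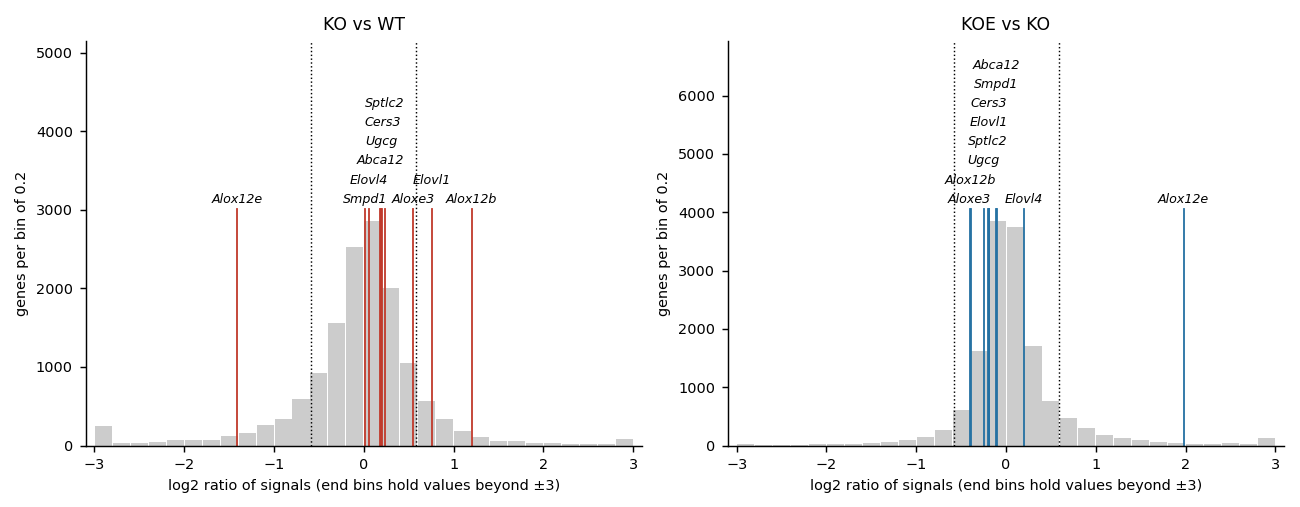
Distribution of log2 ratios over all genes with a signal of at least 40 in 1 of the 2 arrays (gray bars, genes per bin of 0.2), in a left panel for KO vs. WT and a right panel for KOE vs. KO, with the 10 genes as vertical lines. Alox12e lies in the lower tail for KO vs. WT and in the upper tail for KOE vs. KO, and most of the other genes lie near the center.

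The same pathways hold 69 more measured genes on 6 lists, which were compared in the same way. Of the 68 that reached 40 in WT or KO, 10 passed the cut-off upward in KO and 5 downward, and the median log2 ratio was 0.25 against 0.01 over all genes. The share of higher genes, 14.7%, stands beside 10.9% of all genes, and 7.35% lower beside 14.5%. After scaling to a common median, 25 were higher and 4 lower, beside 3381 higher and 1291 lower of 14543 genes in all. The median of all genes itself moved to 0.29. None of the 65 that reached 40 in KO or KOE was past the cut-off between KOE and KO in either direction, so that Alox12e was the single gene past it on these lists as deposited.

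In sphingoid base and ceramide synthesis, 2 of 13 other genes were higher in KO and 1 was lower. Sptlc3, an alternative subunit of serine palmitoyltransferase, gave 1865, 3968 and 3132, and was 2.13-fold higher in KO than in WT. Degs1, the desaturase that makes ceramide from dihydroceramide, had 3869, 6599 and 6027. Sptssb, a small subunit that activates serine palmitoyltransferase, had 824 in WT and signals under 40 in KO and KOE, 11.7 and 31.0. It was singled out after its values were seen, as were Acer1, Alox8 and Alox15 below. Of the partners of Elovl1 and Elovl4 in elongation, Hacd4, a dehydratase of the elongation cycle, was 1.73-fold lower in KO and 11 of 12 were not past the cut-off.

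In acylceramide assembly, 2 of 7 other genes were higher in KO. Dgat2, which makes triglyceride, gave 3565, 6093 and 5479.7, and Nipal4, a membrane protein mutated in human ichthyosis, had 1063, 1603 and 1524. In ceramide release and turnover, 4 of 11 were higher and 1 was lower. Asah2, neutral ceramidase, was 1.73-fold WT, Sgms1, a sphingomyelin synthase, 1.72-fold, Acer3, an alkaline ceramidase, 1.61-fold and Acer1, the alkaline ceramidase of epidermis, 1.54-fold. Smpdl3b, a relative of acid sphingomyelinase, gave 693, 314 and 357, and was 2.21-fold lower in KO than in WT. In cholesterol synthesis, which supplies the other main barrier lipid, 1 of 17 was higher, Fdps, at 1.51-fold, and none was lower.

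The other genes of the lipoxygenase list were mixed, with 1 of 8 higher and 2 lower in KO. Sdr9c7, a dehydrogenase that acts on the product of Aloxe3, gave 626, 1151 and 1313, and was 1.84-fold WT in KO. In the mouse gene order of RefSeq (GRCm38.p6), 6 lipoxygenase genes lie on chromosome 11 in 2 groups of 3 with no other protein-coding gene inside either group, in the order Aloxe3, Alox12b, Alox8 and then Alox12, Alox12e, Alox15. Alox8, which makes 8S-oxidized lipids in mouse skin, had 140 in WT and 3.17 in KO and 3.19 in KOE, both under 40, next to Alox12b, which was higher in KO. Alox12, the platelet-type 12-lipoxygenase, had 469, 378 and 480.2, and was not past the cut-off in any comparison. Alox15 had 66.4 in WT and signals under 40 in KO and KOE.

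**Figure D5:**
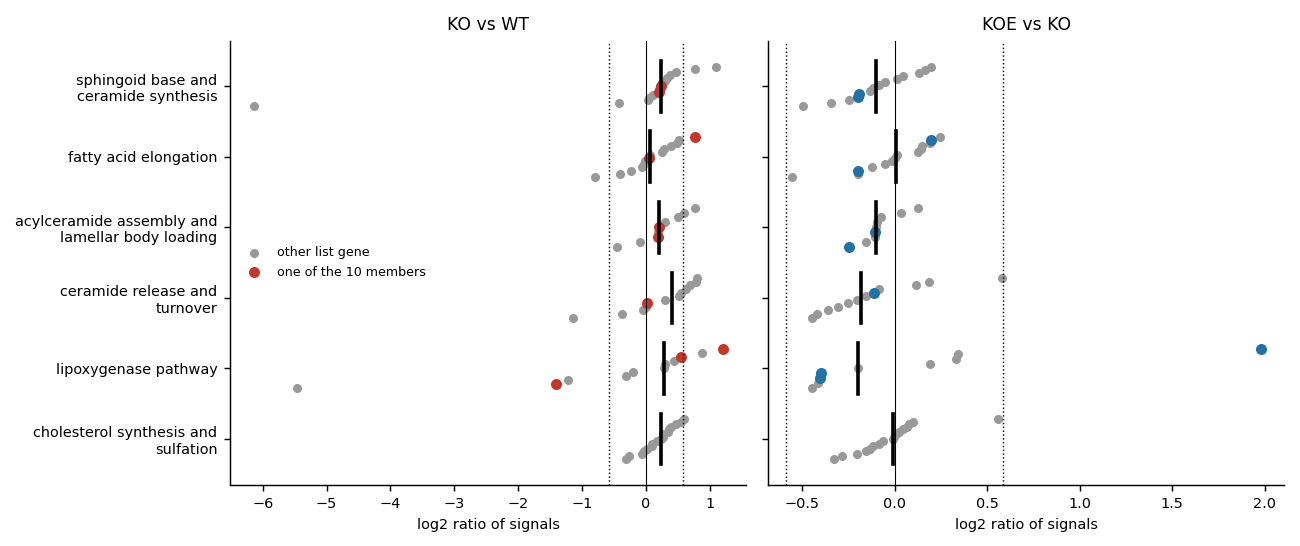
Log2 ratio of each measured gene of 6 pathway lists with a signal of at least 40 in 1 of the 2 arrays, in a left panel for KO vs. WT and a right panel for KOE vs. KO. Colored points are members among the 10 genes, gray points other list genes, black bars list medians and dotted lines 1.5-fold, with a different axis range on each side. For KOE vs. KO all points other than Alox12e, at 1.98, lie inside the dotted lines.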

How the data were processed

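The deposited values are linear signal intensities, which the authors made from arrays of 250 ng pooled RNA with the Affymetrix Microarray Analysis Suite. The 2% trimmed mean over all 45101 probe sets was 500.0 on each array. The 64 control probe sets were left out. Probe sets with 1 gene in the platform annotation, 34945 in all, were named. For 34741 of them the gene identifier was found in RefSeq and the RefSeq symbol was used, whether or not it differed. Ratios were taken from the deposited signals without further scaling. The probe set brightest on average stood for its gene, and the cut-off was a ratio of 1.5 or more where either array reached 40. All probe sets of the 10 genes are named. Of each pathway list, the text names genes among the 4 with the largest difference between KO and WT and at least 40 in both, unless stated. The members and lists were chosen with earlier results of these data known. Alternatives were common median scaling, quantile and cyclic loess normalization (span 0.7, 3 iterations), 40 in both arrays, a limit of 100, an offset of 40, a 2-fold limit, the mean of all probe sets and probe sets without a suffix letter where a gene had one. The versions were Python 3.11.15, pandas 2.3.3, R 4.3.3 and, for normalization, limma 3.58.1.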

Additional observations from a re-analysis of the deposited data

How the results depend on the processing

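The counts of genes past the cut-off were recomputed under 9 other settings. The medians over the 10 genes were recomputed under the same settings except the 2 changes of signal limit and the 2-fold limit. Of 72 such values, 68 stayed within 1.5-fold for a count, or moved by less than the probe set spread for a median. The 2 changes of signal limit and the choice of probe sets without a suffix letter left the value of each of the 10 genes as deposited. They say nothing about stability, although the values they gave are counted in the totals here. Averaging could not alter the 5 genes with 1 probe set. The 4 values that went further were all numbers of higher genes. For KOE vs. WT the number was 3 instead of 1 after scaling to a common median, when Elovl1 and Alox12e joined Alox12b, 2 when all probe sets were averaged and 0 with a 2-fold limit. For KO vs. WT it was 1 in place of 2 with a 2-fold limit, which Elovl1 did not reach. Not among the 4, as it stayed within 1.5-fold, was a number of 3 for KO vs. WT. That came after scaling to a common median and after quantile normalization, when Aloxe3 was added. Of 180 values for single genes, 3 moved by more than that spread, all with averaged probe sets. They were Sptlc2 in KO vs. WT and KOE vs. KO, and Ugcg in KOE vs. WT, at −0.51 on the log2 scale. No gene past the cut-off changed direction. The other pathway genes past it between KOE and KO were 4 lower after scaling to a common median, 1 lower after quantile and after cyclic loess normalization, 2 higher with averaged probe sets and 1 higher without suffix letters. Over all genes, the share of higher among those past the cut-off for KO vs. WT was 42.9% as deposited, 72.4% after scaling to a common median, 57.4% after quantile and 52.5% after cyclic loess normalization. For KOE vs. KO it was 67.1%, 47.1%, 49.6% and 48.7%, and for KOE vs. WT 54.3%, 66.6%, 58.2% and 51.5%. No paired analysis was possible because each group has 1 array. Of the 10 genes, 5 rest on 1 probe set, and signals under 40 have no order.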
